A study of Mus musculus with 18 samples.

Results

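The interferon-stimulated genes described here are 35 genes whose transcription is raised by type I, type II or type III interferon, chosen by symbol and looked up by Ensembl gene ID among the 55469 gene IDs of the deposited tables. All 35 were found in 1 row each. They were measured in RNA of ventral and lateral lobe tissue of the prostate, taken from 18 male mice, 3 for each of 3 lines at 10 weeks and at 30 weeks of age. The Elac2 mutant lines were made on a background named C56NL/6N in the methods and bred with TRAMP mice, whose background is not stated. Every mouse, the controls included, carried 1 copy of TRAMP (TRAMP +/-), in which the probasin promoter drives expression of the SV40 antigens large T and small t in prostatic epithelium. WT-TRAMP mice were ELAC2+/+. KO-TRAMP mice were ELAC2-/-, with exon 8 removed by Pb-Cre, a recombinase expressed from the probasin promoter, so that stromal, vascular and immune cells of the lobes keep the gene. A537T-TRAMP mice were ELAC2A537T, homozygous in every cell for a form with threonine in place of an alanine of ELAC2, the nuclease that trims the 3′ trailers of precursor tRNAs. The comparison asked how each Elac2 genotype affected these genes against WT-TRAMP of the same age.

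Interferons are secreted proteins that cells release after their sensors meet viral RNA, or misplaced RNA and DNA of their own, including mitochondrial RNA. Type I and type III interferons act through JAK kinases on a complex that contains STAT2 and IRF9 and binds the interferon-stimulated response element in the promoters of target genes, while interferon gamma acts mainly at a different element. Many targets are themselves sensors or transcription factors of the same pathway, and epithelium, endothelium, fibroblasts and leukocytes can all express them.

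All 35 genes had lower mean log2 values than WT-TRAMP in both mutant lines at 10 weeks and in KO-TRAMP at 30 weeks, and 30 of 35 did in A537T-TRAMP at 30 weeks. The median log2 fold change was −0.45 for KO-TRAMP and −1.07 for A537T-TRAMP at 10 weeks, and −0.84 for KO-TRAMP and −0.21 for A537T-TRAMP at 30 weeks. None of the genes passed the test in any of the 4 comparisons after adjustment over all genes, so the lower levels are described below by their values and their spread. In RNA from whole lobes, fewer cells of a type and less RNA per cell cannot be told apart.

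Promoter sequences are shown because the 35 genes varied together from library to library and are known as interferon targets. Regulation through these sequences was not tested here. RefSeq promoter windows (GRCm38.p6, 250 bases before to 50 bases after the start of transcription) were at hand for 26 of the 35 genes. The letters GAAANNGAAA, the core of the interferon-stimulated response element, were searched on both strands and occurred in 15 of the 26 (57.7%), against 3.99% of 27025 genes with such windows. Of the further interferon-induced genes described below, 17 of the 29 with windows held them (58.6%). A search for other letters, TTCNNNGAA, found them in 7 of the 26 (26.9%), against 9.55% of all genes with windows. Matches may overlap one another. The 5 windows below belong to Isg15, Ifit3, Rsad2 and Oasl2, which had low values in at least 1 comparison without overlap, and to Ifitm3, which overlapped with the controls in all 4. Their positions are those of Isg15 (minus strand, chr4:156200769-156201068), Ifit3 (plus strand, chr19:34583279-34583578), Rsad2 (minus strand, chr12:26456403-26456702), Ifitm3 (minus strand, chr7:141010695-141010994) and Oasl2 (plus strand, chr5:114896684-114896983). Capitals mark matches to GAAANNGAAA or its reverse complement.
Isg15: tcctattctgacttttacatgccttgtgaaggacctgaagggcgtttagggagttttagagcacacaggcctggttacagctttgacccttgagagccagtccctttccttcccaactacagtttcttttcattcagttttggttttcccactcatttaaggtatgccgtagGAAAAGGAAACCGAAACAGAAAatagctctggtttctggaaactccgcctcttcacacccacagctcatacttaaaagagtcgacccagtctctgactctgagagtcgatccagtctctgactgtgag
Ifit3: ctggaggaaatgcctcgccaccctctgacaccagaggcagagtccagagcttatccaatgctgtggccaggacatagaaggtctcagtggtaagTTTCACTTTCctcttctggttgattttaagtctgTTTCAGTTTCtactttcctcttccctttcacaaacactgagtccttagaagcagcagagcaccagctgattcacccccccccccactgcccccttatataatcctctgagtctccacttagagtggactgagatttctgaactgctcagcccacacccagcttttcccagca
Rsad2: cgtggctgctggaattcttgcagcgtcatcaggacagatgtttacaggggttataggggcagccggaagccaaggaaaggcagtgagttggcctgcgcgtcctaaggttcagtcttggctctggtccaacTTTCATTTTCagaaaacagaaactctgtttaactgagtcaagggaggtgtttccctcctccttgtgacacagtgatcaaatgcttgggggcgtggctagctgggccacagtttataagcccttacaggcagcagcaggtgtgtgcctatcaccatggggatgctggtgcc
Ifitm3: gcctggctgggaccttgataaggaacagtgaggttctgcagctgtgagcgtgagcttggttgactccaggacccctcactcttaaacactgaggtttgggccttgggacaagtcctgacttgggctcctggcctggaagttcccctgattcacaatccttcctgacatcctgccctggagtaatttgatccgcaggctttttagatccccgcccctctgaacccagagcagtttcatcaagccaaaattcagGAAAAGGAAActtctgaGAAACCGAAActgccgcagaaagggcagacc
Oasl2: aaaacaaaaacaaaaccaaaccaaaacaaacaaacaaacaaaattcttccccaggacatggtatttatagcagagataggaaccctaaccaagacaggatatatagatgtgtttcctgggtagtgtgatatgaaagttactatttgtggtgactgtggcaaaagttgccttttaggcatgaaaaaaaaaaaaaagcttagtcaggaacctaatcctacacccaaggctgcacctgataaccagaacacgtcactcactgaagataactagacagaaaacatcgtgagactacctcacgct
Isg15 held 3 overlapping matches that began 78, 72 and 66 bases before the start, and Ifit3 held 2 that began 156 and 122 bases before it. Rsad2 had 1 match, at 120 bases before the start. The 2 matches of Ifitm3 lay just after the start, from bases 3 and 20 of the transcript, and the Oasl2 window held none. A match is a description of the letters, and no match says only that they are not in this window.

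Libraries are called by the numbers in the table headers. At 10 weeks WT-TRAMP mice gave libraries 1 to 3, A537T-TRAMP mice libraries 4 to 6 and KO-TRAMP mice libraries 7 to 9. At 30 weeks the libraries were numbered 10 to 12 for WT-TRAMP, 13 to 15 for A537T-TRAMP and 16 to 18 for KO-TRAMP. Depth, as estimated reads assigned to genes, was 9380174 to 14830104 per library. Values are normalised counts, an estimated read count divided by a size factor for the library, and they are comparable only within a table of 6 libraries. Elac2 itself stood at 85.6% of the WT-TRAMP mean in KO-TRAMP at 10 weeks and at 87.1% at 30 weeks, with overlapping groups at both ages. A count over the whole gene, in tissue that is not all epithelium, does not check the loss of a single exon. Reads of 8 seminal vesicle genes, an organ that borders the prostate, made up 9.05% of library 5, 5.45% of library 13 and 4.35% of library 10, and less than that in the others.

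At 10 weeks, 0 of 35 genes passed the threshold in KO-TRAMP (limma, adjusted p under 0.05), where 0.00647% of all 15451 genes tested were called lower, and 4 were lower at unadjusted p under 0.05, against 2.93% of all genes. In A537T-TRAMP at 10 weeks 0 of 35 passed, with 0.00648% of all genes called lower, and 9 were lower at unadjusted p under 0.05, against 2.82%. In KO-TRAMP at 30 weeks 0 of 35 passed, with 0.0237% of all genes called lower, and 25 were lower at unadjusted p under 0.05, against 5.84%. In A537T-TRAMP at 30 weeks 0 of 35 passed, with 0.0% of all genes called lower, and 6 were lower at unadjusted p under 0.05, against 3.23%. No gene of the 35 was higher at unadjusted p under 0.05 in any comparison. The share with a log2 fold change below 0 was 35, 35, 35 and 30 of 35 in the same order, against 51.1%, 50.9%, 49.1% and 50.0% of all genes, whose medians lay between −0.01 and 0.01. edgeR on the recovered reads likewise called 0 of 35 in each comparison, with 6, 2, 20 and 5 lower at unadjusted p under 0.05, against 2.97%, 1.94%, 5.27% and 4.64% of all genes. DESeq2 on the same reads called 1 lower in KO-TRAMP at 10 weeks (Rsad2), against 0.265% of all genes, and 0 in A537T-TRAMP at 10 weeks. It called 5 lower in KO-TRAMP at 30 weeks (Oasl1, Mx1, Rsad2, Ifit3 and Irf7), against 1.38% of all genes, and 2 in A537T-TRAMP at 30 weeks (Irf7 and Ifit3), against 0.492%.

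**Figure D1:**
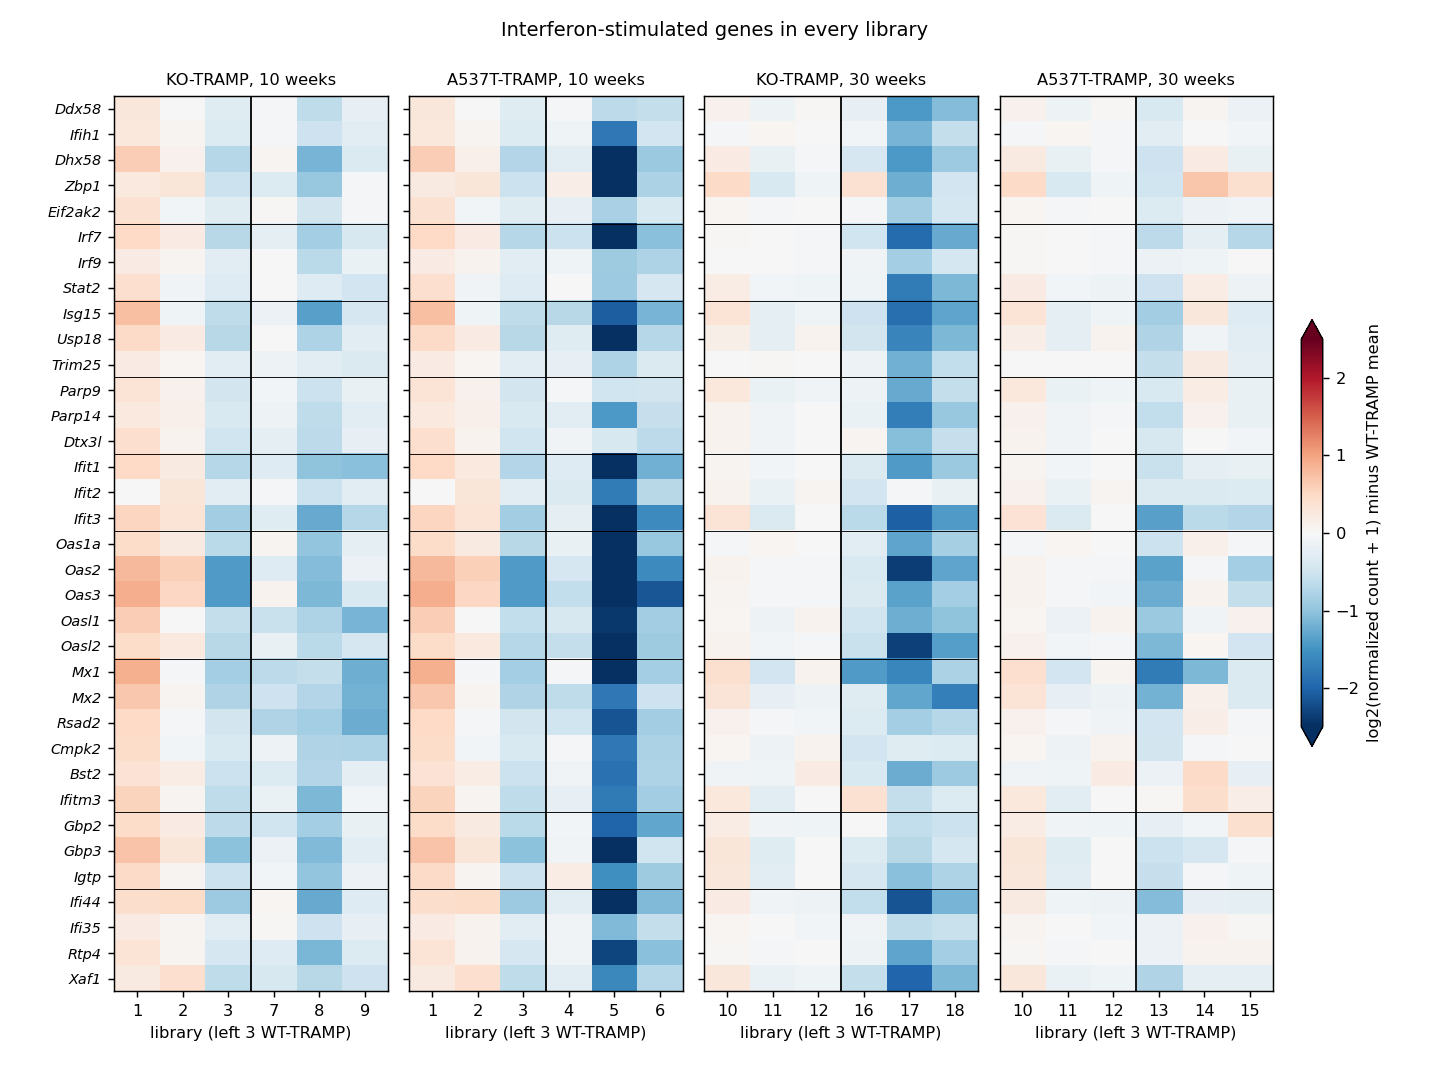
Each of the 35 genes (rows, divided by role) in each library (columns) as log2(normalised count + 1) minus the mean of the 3 WT-TRAMP libraries of that table, with colours saturating at 2.5 in either direction. Library 5 (A537T-TRAMP, 10 weeks) and library 17 (KO-TRAMP, 30 weeks) are the darkest columns, and the 3 WT-TRAMP columns differ more at 10 than at 30 weeks.

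The genes varied together from library to library. Library 5 had the lowest value of the 6 libraries of its table for 34 of 35 genes, library 17 for 32, library 13 for 31 and library 8 for 24. Among the WT-TRAMP libraries at 10 weeks, library 3 was the lowest for all 35 genes and library 1 the highest for 31. At 10 weeks the coefficient of variation among the 3 WT-TRAMP libraries had a median of 34.3% over the 35 genes, against 14.9% over all genes tested, so the control level of this list was itself spread at that age. At 30 weeks it was 8.15%, against 14.7% over all genes, and the mutant libraries were the more variable ones, whose medians were 37.0% (KO-TRAMP) and 22.8% (A537T-TRAMP), against 24.4% and 15.8% over all genes tested. The mutant medians at 10 weeks were 22.4% (KO-TRAMP) and 56.7% (A537T-TRAMP), against 14.3% and 22.2% over all genes, so A537T-TRAMP was more variable than its controls at both ages.

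In KO-TRAMP at 30 weeks, 27 of the 35 genes had all 3 mutant libraries below all 3 WT-TRAMP libraries, against 9.48% of all genes tested. Of the 9 roles, the non-overlapping genes included 5 of 5 of the Oas family, 3 of 3 of the ISG15 pathway and 4 of 4 of the other induced genes, but 1 of 3 of the ADP-ribosylation complex. The transcription factor Irf7, which amplifies interferon production, had normalised counts of 2309.6, 2284 and 2184 in WT-TRAMP and 1606, 592 and 939.9 in KO-TRAMP. Even the highest KO-TRAMP library was below every control, and the fold change was −1.23 ± 0.34 on the log2 scale (SE, adjusted p = 0.327, limma). The other 2 factors of the list, Irf9 and Stat2, which act in the same complex, had fold changes of −0.46 and −1.0, and the groups overlapped for Stat2. Irf9 overlaps Rnf31 on the same strand, so some of its reads could belong to that gene.

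The Oas enzymes sense double-stranded RNA and make the messenger that activates RNase L, an activity that the Oas-like protein Oasl1 lacks. Oasl1, known to restrain translation of Irf7, had the smallest p of the list, with counts of 278, 244 and 284 in WT-TRAMP and 188, 114 and 133 in KO-TRAMP and a fold change of −0.91 ± 0.22 (SE, adjusted p = 0.261, limma). Oasl2, the gene printed above without a response element match, had the largest fold change, −1.42 ± 0.42, with counts of 3529, 3169 and 3254 in WT-TRAMP and 2268, 658 and 1268 in KO-TRAMP. In both genes library 17 was the lowest and library 16 the nearest to the controls. The remaining members Oas1a, Oas2 and Oas3 had fold changes of −0.81, −1.35 and −0.85. Oas1a shares 68.7% of its 31-base words with Oas1g, so its reads could be split between copies.

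Ifit1 binds foreign 5′ ends of RNA and blocks their translation, and Ifit2 and Ifit3 are its close relatives. Ifit3 counts were 1399.9, 853 and 1110.2 in WT-TRAMP and 690.4, 265 and 408 in KO-TRAMP, a difference of −1.38 ± 0.37 (SE, adjusted p = 0.312, limma). It shares 61.8% of its words with Ifit3b, and its value is uncertain to that extent. Ifit1 counts were 1178, 1085 and 1131 in WT-TRAMP and 882, 426 and 593 in KO-TRAMP, also without overlap. Ifit2 lies 7111 bases from Ifit3 on chromosome 19 and behaved otherwise, with counts of 685, 570.1 and 677 in WT-TRAMP and 463, 620.3 and 566 in KO-TRAMP, overlapping groups and a fold change of −0.23 ± 0.15.

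Among the antiviral effectors, Mx1, a dynamin-like GTPase, had counts of 425, 228 and 339 in WT-TRAMP and 119, 103 and 184 in KO-TRAMP and a fold change of −1.28 ± 0.31 (SE, adjusted p = 0.281, limma). Rsad2, or viperin, which makes a chain-terminating nucleotide, had counts of 1305, 1189 and 1149 in WT-TRAMP and 963, 674 and 743 in KO-TRAMP and a fold change of −0.63 ± 0.16 (SE, adjusted p = 0.284, limma). Its KO-TRAMP libraries lay closer together, relative to their mean, than those of Mx1, Ifit3 or Oasl2. Cmpk2, a mitochondrial nucleotide kinase whose gene lies 12751 bases from Rsad2 on chromosome 12, had a fold change of −0.37, Mx2 −1.10 and Bst2, the tetherin that holds budding virus at the membrane, −0.84, each without overlap. Ifitm3, which blocks membrane fusion of viruses, was the exception, with counts of 894, 618 and 755 in WT-TRAMP and 972, 493 and 588 in KO-TRAMP. Library 16 was above every control, and the fold change of −0.19 ± 0.28 had a 95% interval from −0.87 to 0.49.

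The sensors recognise RNA or, for Zbp1, Z-form nucleic acid. Ifih1, the sensor MDA5 of long double-stranded RNA, had counts of 1702, 1816 and 1727 in WT-TRAMP and 1671, 776 and 1151 in KO-TRAMP, with library 16 near the controls and a fold change of −0.61 ± 0.27. Ddx58, the sensor RIG-I, and Dhx58, its relative LGP2, had fold changes of −0.90 and −0.92 without overlap, while Zbp1 and Eif2ak2, the kinase PKR, had −0.44 and −0.45 with overlap. In the pathway of ISG15, a ubiquitin-like tag, Isg15 and Usp18, the protease that removes the tag, had −1.24 and −1.07. Trim25, a ligase that activates RIG-I, had counts of 1800.5, 1834 and 1788 in WT-TRAMP and 1664, 789 and 1185 in KO-TRAMP. The controls of Trim25 agreed within a coefficient of variation of 1.31%, the narrowest of the list, and all 3 KO-TRAMP libraries were below them.

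Parp14, which attaches single ADP-ribose units, had counts of 4069, 3606 and 3764 in WT-TRAMP and 3386, 1154 and 1963 in KO-TRAMP without overlap, whereas Parp9 and Dtx3l, partners whose divergent genes overlap by 682 bases on chromosome 16, had fold changes of −0.66 and −0.52 with overlap. Igtp, an immunity-related GTPase induced mainly by interferon gamma, had counts of 581, 400.2 and 476 in WT-TRAMP and 359, 231 and 282 in KO-TRAMP, without overlap. It overlaps Irgm2 on the same strand and shares 15.9% of its words with it. The guanylate-binding proteins, which attack the vacuoles of intracellular pathogens, showed smaller differences, −0.39 for Gbp2 with overlap and −0.49 for Gbp3 without. Ifi44 counts were 1003, 811 and 798 in WT-TRAMP and 567, 194 and 386 in KO-TRAMP, a difference of −1.31 ± 0.38. Xaf1, which counters an inhibitor of apoptosis, stood at −1.23, and Rtp4 and Ifi35 at −0.76 and −0.42.

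**Figure D2:**
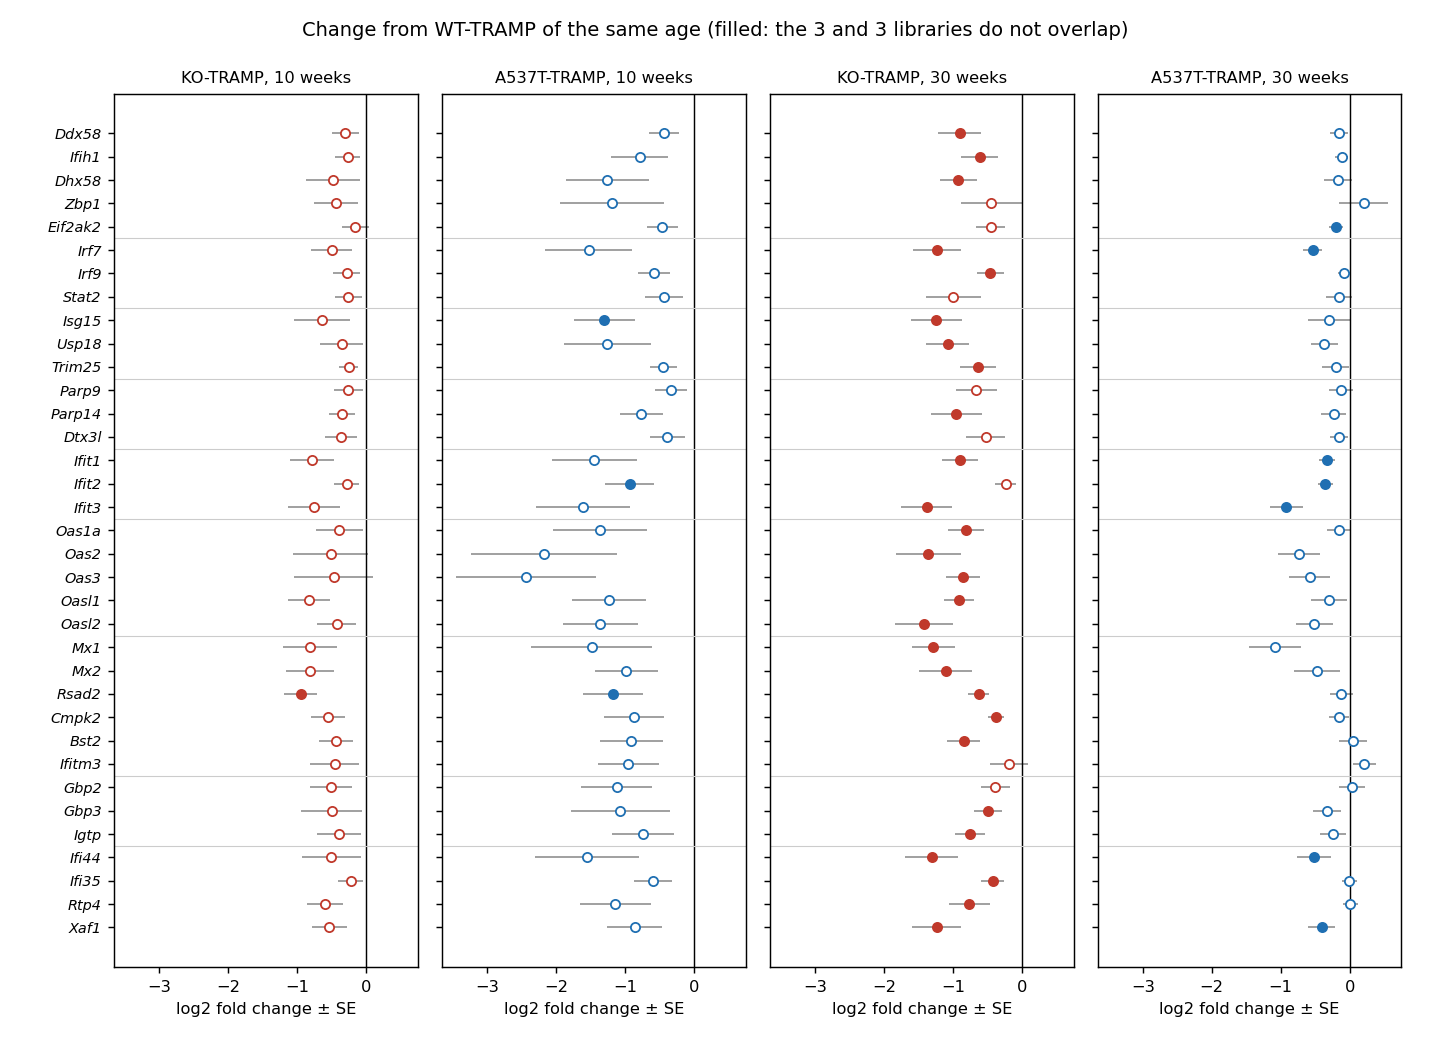
Log2 fold change of each gene from WT-TRAMP of the same age, with the standard error from limma (3 against 3 libraries). Filled points mark genes whose mutant libraries all lie on 1 side of the controls, 27 of 35 in KO-TRAMP at 30 weeks and 1, 3 and 7 in KO-TRAMP at 10 weeks, A537T-TRAMP at 10 weeks and A537T-TRAMP at 30 weeks.

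Cell type markers differed in the same KO-TRAMP libraries. The summed normalised count of 10 macrophage markers was 1960.5, 1905 and 1976 in WT-TRAMP and 3702, 2924 and 3431 in KO-TRAMP, with 7 of 10 markers higher at unadjusted p under 0.05, against 7.7% of all genes. Mertk, a receptor for the uptake of dying cells, went the other way, with a log2 fold change of −0.77. C1qb, a complement gene of macrophages, rose (254, 233 and 223 in WT-TRAMP and 506, 489.8 and 517 in KO-TRAMP, adjusted p = 0.042, limma). The sum of 6 neuroendocrine markers was 32.9 in library 16, 14046 in library 17 and 8797 in library 18, against 14.4 to 1004 in WT-TRAMP. The 6 endothelial markers summed to 677, 3335 and 2272 in KO-TRAMP, against 409 to 519. Of the 4 adipocyte markers tested, 3 were lower at unadjusted p under 0.05, against 5.84% of all genes, and the median of the 4 was −3.34 on the log2 scale. The 5 basal epithelium markers summed to 411, 2340 and 1664 in KO-TRAMP, against 393 to 423 in WT-TRAMP. Seminal vesicle reads made up 4.35%, 0.000106% and 1.90% of WT-TRAMP libraries 10, 11 and 12, and at most 0.266% in KO-TRAMP. With library 11 as the only control the median fold change of the 35 genes was −0.74. The part of these tissues and cell types in the lower interferon-stimulated genes was not tested beyond these values. The sums of 10 T and NK cell markers, 117 to 162.6 in KO-TRAMP and 164.5 to 206 in WT-TRAMP, were lower in KO-TRAMP by a narrow margin, and those of 4 plasmacytoid dendritic cell markers were 17.9 to 29.8 in all 6 libraries.

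**Figure D3:**
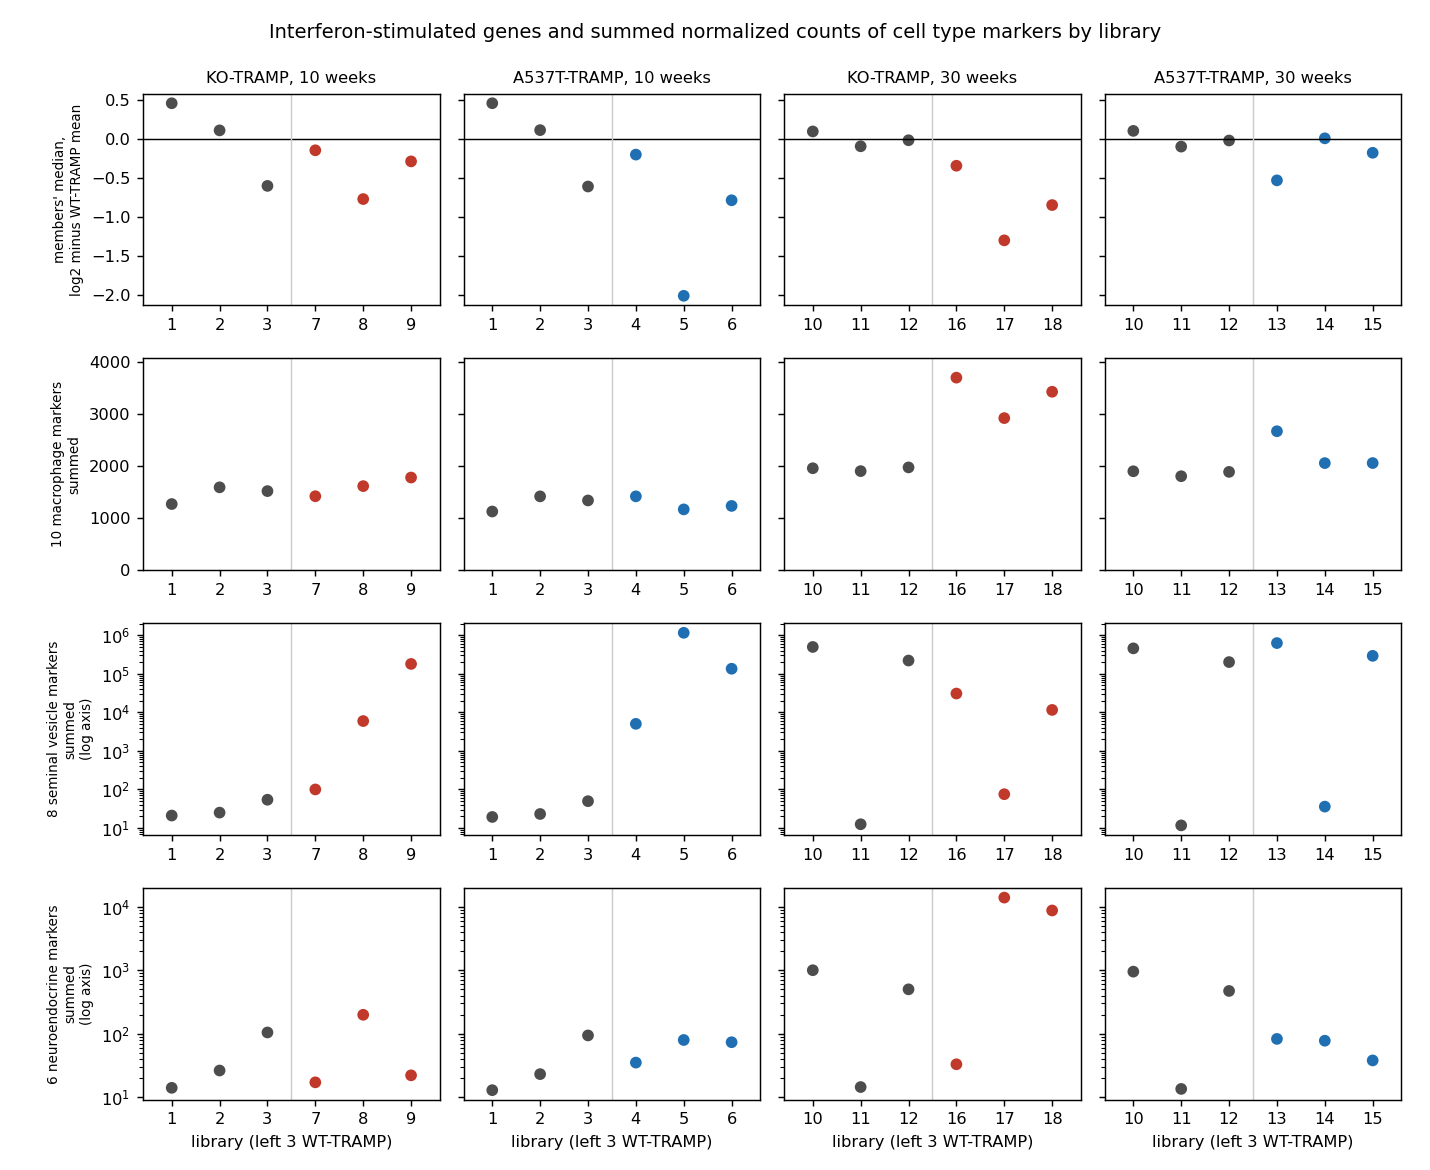
Each library's median over the 35 genes of log2(normalised count + 1) minus the WT-TRAMP mean (top), above the summed normalised counts of macrophage, seminal vesicle and neuroendocrine markers (the last pair on log axes). In KO-TRAMP at 30 weeks, libraries 17 and 18 hold neuroendocrine sums of 14046 and 8797, and library 16 holds 32.9 with a median of −0.34.

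In A537T-TRAMP at 10 weeks the median fold change was the largest of the 4 comparisons. Each of the 35 genes was lower in the mean, from −2.44 for Oas3 to −0.34 for Parp9, but 3 genes did not overlap between the groups (Isg15, Ifit2 and Rsad2), against 6.53% of all genes tested. Isg15 counts were 415, 229 and 159 in WT-TRAMP and 153, 58.6 and 110.1 in A537T-TRAMP, a difference of −1.30 ± 0.45 (SE, adjusted p = 0.60, limma). Rsad2 counts were 2169, 1477 and 1110 in WT-TRAMP and 1079, 342 and 838 in A537T-TRAMP, or −1.17 ± 0.44 on the log2 scale. Ifit2, which overlapped in KO-TRAMP at 30 weeks, had counts of 482, 603 and 398 in WT-TRAMP and 378, 144 and 303 in A537T-TRAMP. In each of these genes library 5 was the lowest of the 6.

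Irf7 counts were 2578, 2109 and 1119 in WT-TRAMP and 1262, 227 and 884 in A537T-TRAMP, with library 4 above the lowest control. Irf9 counts were 1478, 1361 and 1058 in WT-TRAMP and 1193, 696 and 758 in A537T-TRAMP, also with library 4 inside the control range. Oasl2 counts were 3152, 2715 and 1401 in WT-TRAMP and 1509.7, 377 and 1237 in A537T-TRAMP, with library 4 above the lowest control and library 5 far below the other libraries. Oas3, an enzyme that senses long double-stranded RNA, had the largest mean difference of the list, −2.44, with a standard error of 1.02. Its counts were 676, 516 and 135 in WT-TRAMP and 237, 14.4 and 81.4 in A537T-TRAMP, and the coefficient of variation in A537T-TRAMP was 103%, the highest of the 35 genes in any group.

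Ifit1 counts were 1628, 1362 and 699 in WT-TRAMP and 929, 164 and 502 in A537T-TRAMP. Ifi44 counts were 950.3, 967 and 374 in WT-TRAMP and 581, 70.7 and 327 in A537T-TRAMP. Both genes had a library 4 value within the control range. Ifih1 counts were 1958, 1701 and 1284 in WT-TRAMP and 1515, 469.7 and 1159 in A537T-TRAMP, and Trim25 counts were 1765, 1587 and 1275 in WT-TRAMP and 1329.8, 899 and 1184 in A537T-TRAMP. The ADP-ribosylation complex had the smallest median of the 9 roles, −0.39, and its most abundant member Parp14 had counts of 3396, 3138 and 2196 in WT-TRAMP and 2364, 1051 and 1923 in A537T-TRAMP. Igtp counts were 484, 366 and 238 in WT-TRAMP and 396, 120.5 and 187 in A537T-TRAMP, with library 4 between the highest 2 controls.

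The median over the 35 genes was −0.20 in library 4, −2.01 in library 5 and −0.78 in library 6. Libraries 5 and 6 also held 9.05% and 1.25% seminal vesicle reads, against 0.0487% in library 4 and at most 0.000459% in the controls. The 6 smooth muscle markers summed to 9891, 27180 and 14933 in A537T-TRAMP, against 3907 to 6578 in WT-TRAMP. The 6 endothelial markers, all higher in the mean, summed to 223, 334 and 502 in A537T-TRAMP and to 153 to 178 in WT-TRAMP. The 4 T and NK cell markers tested were all lower in the mean, with a median of −1.28 on the log2 scale, and none of them had unadjusted p under 0.05. Without the 2 libraries above 1% seminal vesicle reads the median fold change was −0.20, from library 4 alone against the 3 controls, and 32 of the 35 genes were below 0. With a scaling that left out seminal vesicle genes it was −1.08. The part of these tissues and cells in the result was not tested beyond these values.

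In KO-TRAMP at 10 weeks the differences were smaller, and Rsad2 was the only gene of the 35 without overlap, against 6.26% of all genes tested. Its counts were 2423, 1648 and 1245 in WT-TRAMP and 1011, 944 and 724 in KO-TRAMP, and the fold change was −0.95 ± 0.24 (SE, adjusted p = 0.679, limma), the largest of the list in this comparison. All 3 KO-TRAMP libraries of Rsad2 were below the lowest control. Oasl1 counts were 465, 302 and 200.4 in WT-TRAMP and 206, 178 and 136 in KO-TRAMP. Ifit1 counts were 1834, 1534 and 792 in WT-TRAMP and 1050.1, 654 and 632 in KO-TRAMP. Mx2 counts were 372, 244 and 137 in WT-TRAMP and 162, 138 and 102 in KO-TRAMP. These 3 genes completed the 4 at unadjusted p under 0.05, and in each of them the lowest control, library 3, was below at least 1 KO-TRAMP library. Mx2 is annotated as a polymorphic pseudogene, since some strains carry a form that makes no protein. Rtp4, a chaperone of receptors, had counts of 915, 766 and 546 in WT-TRAMP and 581, 330 and 573 in KO-TRAMP.

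The genes that stand for the other roles overlapped throughout. Irf7 counts were 2912, 2381 and 1269.7 in WT-TRAMP and 1739.7, 1139 and 1571 in KO-TRAMP. Oasl2 counts were 3409, 2932 and 1522 in WT-TRAMP and 2192, 1548 and 1845 in KO-TRAMP. Ifih1 counts were 2199, 1907 and 1448 in WT-TRAMP and 1783, 1282 and 1515 in KO-TRAMP. In these and the other genes of the list library 3 was the low control. Parp14 counts were 3755, 3464 and 2438 in WT-TRAMP and 2904, 2043 and 2594 in KO-TRAMP. Trim25 counts were 1999.7, 1796 and 1450.2 in WT-TRAMP and 1589.6, 1441 and 1344 in KO-TRAMP. Library 7 was the highest of the 3 KO-TRAMP libraries for 28 of the 35 genes. Igtp counts were 545, 411 and 269 in WT-TRAMP and 376, 198 and 355 in KO-TRAMP. Ifi44 counts were 1056, 1075 and 417 in WT-TRAMP and 809, 327 and 625 in KO-TRAMP, so that library 8 held the lowest value in both. The smallest mean difference was that of Eif2ak2, at −0.16 ± 0.20, with a 95% interval from −0.62 to 0.30. The 6 smooth muscle markers summed to 7861, 12420.5 and 11395 in KO-TRAMP against 4390.2, 7375 and 6447 in WT-TRAMP. The 8 seminal vesicle genes, all higher in the mean, made up 0.000906%, 0.0522% and 1.63% of the reads of libraries 7, 8 and 9, against at most 0.000459% in the controls. The part of these tissues in the result was not tested.

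**Figure D4:**
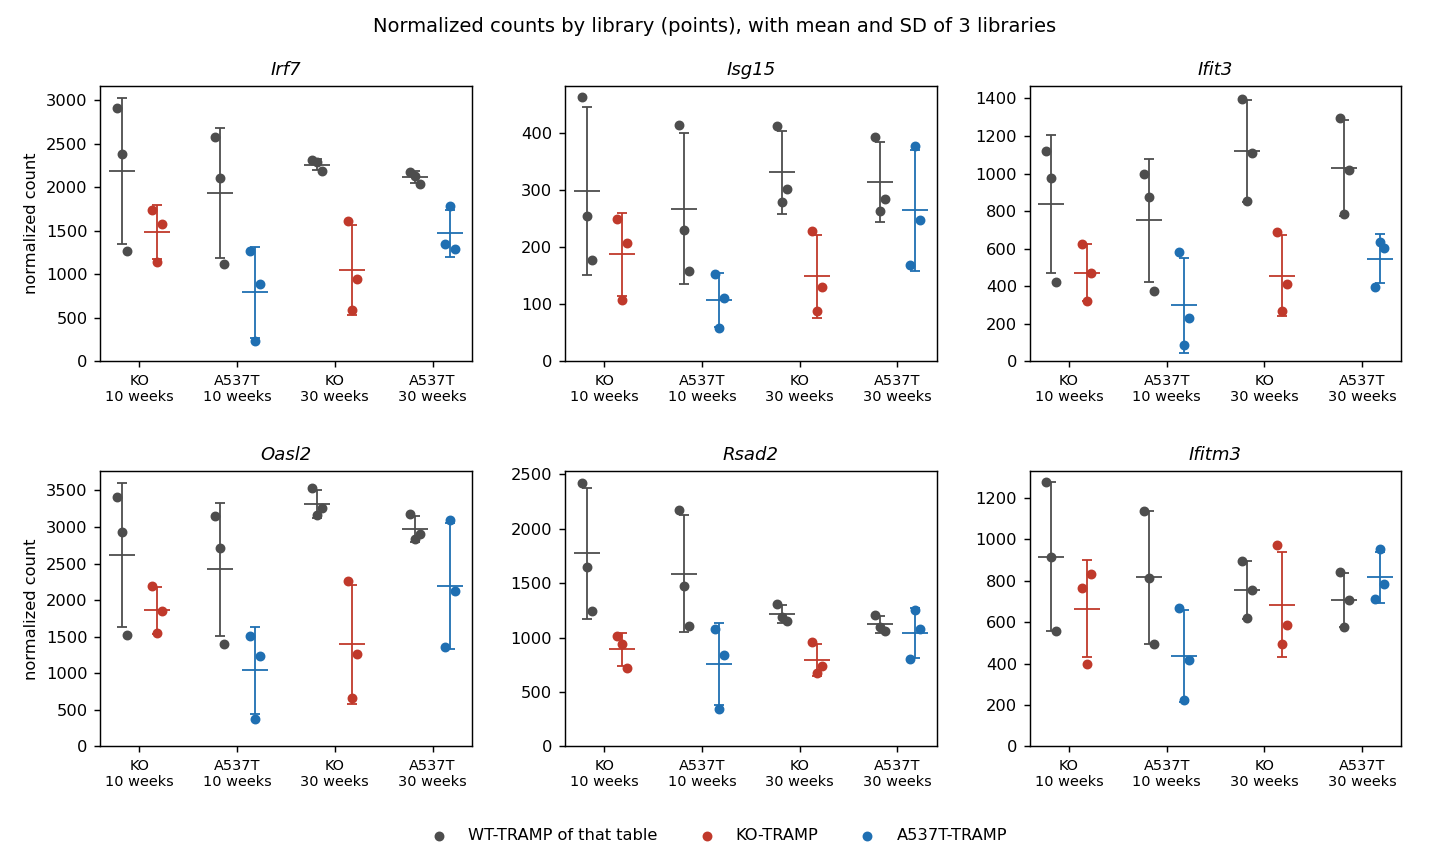
Normalised counts of 6 genes in every library (points) with the mean and SD of 3 libraries, each mutant group beside the WT-TRAMP libraries of its own table. Irf7, Ifit3 and Oasl2 separate fully from the controls in KO-TRAMP at 30 weeks, Rsad2 separates in 3 of the 4 comparisons, and Ifitm3 overlaps in all 4.

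In A537T-TRAMP at 30 weeks the mean differences were small for most of the list, but the libraries differed. Library 13 was below every WT-TRAMP library for 34 genes of the list, library 15 for 21 and library 14 for 10. The median fold change was −0.21, and 7 genes did not overlap (Eif2ak2, Irf7, Ifit1, Ifit2, Ifit3, Ifi44 and Xaf1), against 6.03% of all genes tested. Irf7 counts were 2169.9, 2129.8 and 2039 in WT-TRAMP and 1343, 1779 and 1285 in A537T-TRAMP, a difference of −0.54 ± 0.13 (SE, adjusted p = 0.504, limma), the smallest p of the list. All 3 of the Ifit family were below the controls. Ifit3 counts were 1294, 782 and 1019 in WT-TRAMP and 395, 637 and 604 in A537T-TRAMP, a difference of −0.92 ± 0.24. Ifit2 counts were 633, 523 and 622 in WT-TRAMP and 461, 458 and 465 in A537T-TRAMP, or −0.36 ± 0.11. Ifit1 counts were 1095, 1001 and 1043 in WT-TRAMP and 707, 889.6 and 917 in A537T-TRAMP, or −0.33 ± 0.12. The 3 A537T-TRAMP libraries of Ifit2 agreed within a coefficient of variation of 0.717%.

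Mx1 had the largest mean difference, with counts of 397, 213 and 315 in WT-TRAMP and 87.7, 137 and 231 in A537T-TRAMP and overlap in library 15. Oasl2 counts were 3178, 2832 and 2909 in WT-TRAMP and 1366, 3091 and 2121 in A537T-TRAMP. Rsad2 counts were 1209, 1093 and 1057 in WT-TRAMP and 802, 1257 and 1076 in A537T-TRAMP. In both genes library 14 lay within or above the control range. Ifih1 counts were 1550.2, 1641 and 1561 in WT-TRAMP and 1317, 1570.5 and 1504 in A537T-TRAMP. Parp14 counts were 3722, 3272 and 3418 in WT-TRAMP and 2255, 3743 and 3035 in A537T-TRAMP. Trim25 counts were 1699.9, 1717 and 1675 in WT-TRAMP and 1122, 1990.2 and 1429 in A537T-TRAMP. For these 3 genes library 13 was below every control and library 14 was within or above the control range. Igtp counts were 539.6, 369 and 439 in WT-TRAMP and 298, 428 and 414 in A537T-TRAMP. Ifi44 counts were 932, 747 and 735 in WT-TRAMP and 374, 698 and 675 in A537T-TRAMP, with all 3 A537T-TRAMP libraries below the controls. The 5 genes with a positive log2 fold change were Zbp1, Bst2, Ifitm3, Gbp2 and Rtp4, from 0.01 for Rtp4 to 0.21 for Ifitm3, none of which passed the test. Library 13 was the lowest of the 3 mutant libraries for 32 genes, and it also had the highest share of seminal vesicle reads (5.45%, against 2.65% in library 15 and 0.000313% in library 14) and the highest macrophage marker sum of the table (2672, against 1807 to 1902 in WT-TRAMP). Adipocyte markers differed most, with 4 of the 4 tested lower at unadjusted p under 0.05, against 3.23% of all genes. Their median was −3.62 on the log2 scale, with sums of 107, 25.0 and 58.8 in A537T-TRAMP against 333 to 993 in WT-TRAMP. The 6 neuroendocrine markers were all lower in the mean, with a median of −2.47, and overlapped with the controls. The part of these cells in the result was not tested.

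The difference in effect between the ages was tested as an interaction over 12 libraries for each line. For KO-TRAMP the effect at 30 weeks minus that at 10 weeks had a median of −0.38 over the 35 genes and was below 0 for 29, with 0 genes at unadjusted p under 0.05 in either direction, against 6.76% of all genes called lower at that threshold. Oasl2 had the largest shift, −0.99 ± 0.56 (SE, adjusted p = 0.451, limma). For A537T-TRAMP the median was 0.74 and all 35 genes were above 0, meaning smaller deficits at 30 weeks, with 1 gene at unadjusted p under 0.05 (Ifitm3, 1.16 ± 0.52, adjusted p = 0.721, limma), against 2.66% of all genes called higher at that threshold. The 2 lines share the WT-TRAMP libraries of each age, so their effects are not independent, and no gene's effect was shown to differ between the ages.

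Levels between genes can be set side by side only roughly, as normalised counts per kilobase of merged exon, which depend on the annotated exons. In WT-TRAMP at 30 weeks in the KO-TRAMP table, Ifitm3 had the highest level, 1114 per kilobase, followed by Ifit3 (642), Irf7 (598) and Oasl2 (520.5). Zbp1 (42.9), Mx2 (62.2), Gbp3 (74.7) and Oas3 (80.4) were the lowest. The merged exons of Irf7 cover 3776 bases, its whole annotated span, so its level per kilobase may be understated. Ifit3 shares 61.8% of its words with Ifit3b, so its level is uncertain too. The order of the highest genes is uncertain to that extent. The genes with the highest levels included the smallest fold change of KO-TRAMP at 30 weeks (Ifitm3) and the largest (Oasl2).

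The rest of the pathway was followed through lists of its other parts. The 10 interferon ligand genes were almost absent, with summed counts of at most 9.40 in any library and none tested. The 6 receptor subunits had median fold changes of −0.11 (KO-TRAMP) and 0.0013 (A537T-TRAMP) at 10 weeks, against 0.13 and 0.14 at 30 weeks. None passed the test (limma). At unadjusted p under 0.05 there was 1 lower in A537T-TRAMP at 10 weeks, against 2.82% of all genes. In A537T-TRAMP at 30 weeks all 6 were higher in the mean, from 0.08 for Ifnar1 to 0.37 for Ifngr1 (smallest adjusted p = 0.576, limma). Of the 10 genes of the JAK-STAT relay and its brakes, none passed in any comparison, and 0, 1, 2 and 1 were lower at unadjusted p under 0.05 (KO-TRAMP, then A537T-TRAMP, at 10 and then at 30 weeks). Of all genes tested, 2.93%, 2.82%, 5.84% and 3.23% were lower at that threshold in the same order.

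Of the 12 nucleic acid sensing adaptors and the 10 RNA and DNA clearance enzymes, none passed the test. At most 2 of either list were lower at unadjusted p under 0.05 in any comparison, against 2.82% to 5.84% of all genes. Traf3, an adaptor of the RNA sensors, went the other way at 10 weeks, with counts of 101, 107 and 196 in WT-TRAMP and 311, 294 and 295 in KO-TRAMP and a fold change of 1.21 ± 0.25 (SE, adjusted p = 0.574, limma). In A537T-TRAMP at 10 weeks, against the same control mice, its fold change was 0.99, not at unadjusted p under 0.05 (limma). Ddx60, a helicase that is itself induced by interferon, had counts of 1307, 1294 and 1164 in WT-TRAMP and 893, 391 and 591 in KO-TRAMP at 30 weeks (−1.08 ± 0.29). Rnaseh2a, a subunit of RNase H2 that is also used in DNA replication, was higher in the mean in KO-TRAMP at 30 weeks, 271, 372 and 328 in WT-TRAMP and 397, 1423 and 947 in KO-TRAMP, most of all in libraries 17 and 18. A further 40 interferon-induced genes had medians of −0.27 (KO-TRAMP) and −0.78 (A537T-TRAMP) at 10 weeks, against −0.64 and −0.14 at 30 weeks. At unadjusted p under 0.05, 2, 5, 18 and 2 of the 40 were lower in the same order, against 2.93%, 2.82%, 5.84% and 3.23% of all genes. None of the 40 passed after adjustment. Among them Cxcl10, a chemokine that draws T cells, had counts of 445, 234 and 182 in WT-TRAMP and 138, 98.9 and 138 in KO-TRAMP at 10 weeks, and Phf11d had counts of 563, 445 and 456 in WT-TRAMP and 315, 157 and 234 in KO-TRAMP at 30 weeks.

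The size of the median rested on single libraries. Leaving out library 1 took the KO-TRAMP median at 10 weeks to −0.20, library 8 to −0.21 and library 3 to −0.77. Leaving out library 5 took the A537T-TRAMP median of that age to −0.51. The KO-TRAMP median at 30 weeks stayed between −1.08 and −0.59. Without library 16, 28 of the 35 genes passed the threshold lower in that comparison (limma, adjusted p under 0.05), where 6.86% of all 16950 genes tested were called lower and 11.2% higher, and 2 genes passed for the difference between the ages, against 4.92% of all genes. Leaving out library 13 brought the A537T-TRAMP median at 30 weeks to −0.04, and leaving out library 14 to −0.34. A limma fit that weights each library by its distance from its group called 35 of 35 genes lower in KO-TRAMP at 30 weeks, but 30.3% of all genes were called lower and 33.3% higher by it. In A537T-TRAMP at 30 weeks it called 7 genes lower, against 10.5% of all genes. For the difference between the ages it called 7 genes lower for KO-TRAMP, against 15.2%, and 5 higher for A537T-TRAMP, against 4.64%.

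**Figure D5:**
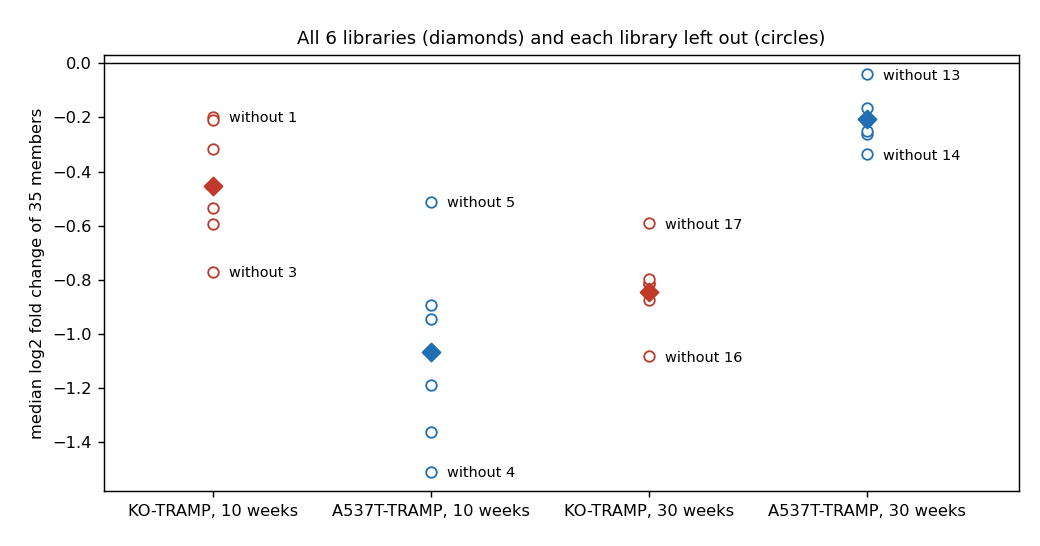
Median log2 fold change of the 35 genes with all 6 libraries (diamonds) and with each library left out in turn (circles), for the 4 comparisons. All medians are below 0, and the widest span is in A537T-TRAMP at 10 weeks, from −1.51 without library 4 to −0.51 without library 5.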

How the data were processed

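RNA-seq tables covered prostate tissue (ventral plus lateral lobes) of 18 mice. Per the methods and the submitters' processing notes, reads were trimmed with Trim Galore 0.4.1 and cutadapt 1.18, aligned with STAR 2.7.3a to GRCm38.p6 masked for nuclear mitochondrial copies, and quantified by strand with Salmon on a GENCODE annotation, with DESeq2 1.26 downstream. The authors deposited 4 tables of normalised counts (a signal: estimated counts divided by 1 size factor per library). All values (100%, within 0.01 read) were whole multiples of 1 step, from which whole reads were recovered. Library 1 gave 13094183 such reads in the KO-TRAMP table and 13094317 in the A537T-TRAMP table. Recovered reads are therefore estimates that depend on the table. The 4 tables of the authors' own comparisons (mean, log2 fold change, its SD, s-value) were not used. Headers carry library numbers but no replicate number. Columns common to both tables of an age are WT-TRAMP.

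Each line was compared with WT-TRAMP in its table with limma 3.58.1 (trend, R 4.3.3) on log2(normalised count + 1), for genes with a mean of at least 10, two-sided, with Benjamini-Hochberg adjustment over all genes tested and a threshold of 0.05. All 35 genes passed the filter in each table. The age interaction used 12 libraries with an intercept per table. Fold changes on this scale understate the change of low genes. Alternatives were pseudocounts of 0.5 and 5, no filter or a mean of 50, TMM scaling, scaling without seminal vesicle genes, array weights, edgeR 4.0.16, DESeq2 1.42.0 and leaving out each library. The fit was tested on simulated counts with the same dispersion for every gene and no shared variation between genes. Genes that vary together, as these did, are not covered by that test. The genes, lists and tests were chosen with earlier results of these data known. Values in every library are given for the 5 genes with the smallest p per comparison and the most abundant gene of each role, and others by fold change. Of each pathway list, genes among the 3 with the smallest p are named. Gene positions are from GENCODE vM21 and promoters from RefSeq, both on GRCm38. Some results are not reported here. For Isg15 and Mx1 the ID version differs from the authors' release.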

Additional observations from a re-analysis of the deposited data

Results flagged for a closer look

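Ifitm3 in A537T-TRAMP stood out because all 3 of its libraries were on opposite sides of the WT-TRAMP mean at the 2 ages. Zbp1, Bst2, Gbp2 and Rtp4 also had mean fold changes below 0 at 10 weeks and above 0 at 30 weeks, but not in every library at both ages. Its counts at 10 weeks were 1138, 814 and 496 in WT-TRAMP and 669, 225 and 419.7 in A537T-TRAMP, a fold change of −0.95 ± 0.44 on the log2 scale (SE, adjusted p = 0.60, limma). At 30 weeks they were 841, 578 and 705 in WT-TRAMP and 712, 953 and 786 in A537T-TRAMP, a fold change of 0.21 ± 0.17 (SE, adjusted p = 0.808, limma). The A537T-TRAMP libraries lay below that mean at 10 weeks and above it at 30 weeks, although the groups overlapped at both ages. The interaction gave 1.16 ± 0.52 (SE, unadjusted p = 0.0465, adjusted p = 0.721, limma), so the difference between the ages did not pass the test. Library 5 was the lowest at 10 weeks, as for 34 of the 35 genes.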

How the results depend on the processing

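No paired analysis was possible because the columns carry no replicate number. The median fold change of the 35 genes stayed below 0 in all 4 comparisons under every alternative run, and the count of genes called stayed at 0 in A537T-TRAMP at 10 weeks. DESeq2 called 1 gene in KO-TRAMP at 10 weeks, and at 30 weeks 5 for KO-TRAMP and 2 for A537T-TRAMP. Array weights, which give less weight to libraries far from their group and gave convergence warnings, called 35 and 7 genes at 30 weeks (KO-TRAMP and A537T-TRAMP), and 7 and 5 for the difference between the ages. With them 30.3% of all genes were called lower and 33.3% higher in KO-TRAMP at 30 weeks. Leaving out each library in turn gave 0 to 28 called genes in KO-TRAMP at 30 weeks and 0 to 2 for its difference between the ages, the highest values in both without library 16, and 0 in the other comparisons. The fold change of Igtp in A537T-TRAMP at 10 weeks turned to 0.19 without the libraries over 1% seminal vesicle reads, a setting chosen after seeing the data that leaves library 4 alone against the controls and assumes that it varies like them. Zbp1 and Stat2 were also above 0 there, at 0.17 and 0.01. In KO-TRAMP at 30 weeks the setting drops libraries 10 and 12 and leaves library 11 as the only control. Ifitm3 was at 0.09 in that comparison. That of Rsad2 in A537T-TRAMP at 30 weeks ran from −0.27 without library 14 to 0.057 without library 13 when each library was left out in turn. The setting on seminal vesicle reads could not be fitted to A537T-TRAMP at 30 weeks, since fewer than 3 libraries remain, and was not run for the difference between the ages. The cause of these shifts was not tested. With 3 mice a group, standard errors on the log2 scale reached 1.05 within an age (Oas2 in A537T-TRAMP at 10 weeks) and 1.23 for the difference between the ages (Oas2 in A537T-TRAMP).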
